A study of Mus musculus with 3 samples.

Results

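Of the 1003 regions at which ETO2 chromatin immunoprecipitation (ChIP) gave an overlapping peak in both replicates, 401 held the GATA factor site WGATAR (W is A or T and R is A or G) at the replicate 1 summit without the spaced arrangement in which CTG is followed by 8 to 10 bases and GATA. These are called GATA-only peaks below. The name refers to the missing spaced arrangement alone, since CTG was somewhere in 400 of the 401 windows and in 97.4% of windows 500 bp away. The GATA-only peaks were selected on measured values, as peaks of the replicate 1 list that overlapped a replicate 2 peak by at least 1 bp, and then on the mouse genome sequence (build mm9, both strands) of the 100 bp centred on the replicate 1 summit. The other shared regions were 368 composite peaks, which had the spaced CTG and GATA, and 234 peaks with neither. The composite class asked for GATA and not for the full WGATAR, which 326 of the 368 held. These 2 classes therefore do not differ by the spaced CTG alone. Of all 2335 replicate 1 peaks, 43.0% were shared with replicate 2, against 401 of 878 (45.7%) of those with the GATA-only sequence, and since the overlap is part of the selection this share is only a description.

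The chromatin came from wild type mouse embryonic stem (ES) cells of a C57Bl/6 X Sv129 background, differentiated as embryoid bodies and enriched on magnetic columns for FLK1, the receptor encoded by Kdr that marks mesoderm with blood and vessel potential. The sample labels give day 4, whereas the series design text gives day 3.5. The labels describe 2 ETO2 ChIP samples and 1 input, which was not analysed here. No expression values were analysed here with which the cell type could be checked, and no control for the antibody.

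ETO2, the product of Cbfa2t3, is a co-repressor with no known DNA-binding activity of its own and reaches chromatin through transcription factors. Its best known partner assembly in blood cells holds SCL (Tal1), an E protein, LMO2, LDB1 and a GATA factor. In this assembly the SCL and E protein pair contacts an E-box (CANNTG), often only the partial sequence CTG, and the GATA factor contacts a GATA site roughly a helical turn away. GATA-only peaks therefore carry the GATA part of that arrangement, but not the partial E-box at its usual spacing.

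The 6 GATA-only peaks with the best mean rank of fold enrichment over both replicates are shown first because they are the most strongly enriched sites of the class. Each line gives the gene with the nearest start site, the mm9 window and the plus strand from 5′ to 3′, with WGATAR in capitals. A site on the minus strand appears as its reverse complement, such as TTATCT.
Olfr65 (chr7:111058674-111058773): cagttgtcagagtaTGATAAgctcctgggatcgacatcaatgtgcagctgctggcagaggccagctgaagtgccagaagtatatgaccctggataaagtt
Herc1 (chr9:66142906-66143005): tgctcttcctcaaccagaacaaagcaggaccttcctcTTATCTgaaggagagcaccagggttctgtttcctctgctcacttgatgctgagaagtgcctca
Gcom1 (chr9:71454470-71454569): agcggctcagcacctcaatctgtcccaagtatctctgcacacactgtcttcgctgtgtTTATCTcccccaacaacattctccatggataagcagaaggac
Hdgf (chr3:87705304-87705403): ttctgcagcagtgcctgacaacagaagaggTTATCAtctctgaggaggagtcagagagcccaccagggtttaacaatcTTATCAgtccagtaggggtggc
Zdhhc19 (chr16:32509757-32509856): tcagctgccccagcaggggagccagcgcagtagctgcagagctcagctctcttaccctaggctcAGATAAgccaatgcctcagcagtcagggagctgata
1700013N18Rik (chr5:108188248-108188347): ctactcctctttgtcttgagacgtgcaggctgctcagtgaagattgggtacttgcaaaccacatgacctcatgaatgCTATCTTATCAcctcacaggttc
Of the 3 further windows, Plekha6 and Fndc7 are the only ones with 4 WGATAR sites, some of which share letters, and Hunk is the best ranked of the 16 windows with 3 sites, which in Hunk are well apart.
Plekha6 (chr1:135141344-135141443): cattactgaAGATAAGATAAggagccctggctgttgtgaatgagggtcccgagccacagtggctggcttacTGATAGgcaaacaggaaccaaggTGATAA
Fndc7 (chr3:108689245-108689344): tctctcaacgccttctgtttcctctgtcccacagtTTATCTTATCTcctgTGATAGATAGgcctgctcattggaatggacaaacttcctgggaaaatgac
Hunk (chr16:90451994-90452093): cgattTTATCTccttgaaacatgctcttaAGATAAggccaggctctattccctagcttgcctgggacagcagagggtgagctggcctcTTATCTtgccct
A further 5 windows stand for the gene groups described below.
Gse1 (chr8:122894011-122894110): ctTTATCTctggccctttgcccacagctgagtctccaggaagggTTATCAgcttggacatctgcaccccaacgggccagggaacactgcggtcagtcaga
F2rl2 (chr13:96441562-96441661): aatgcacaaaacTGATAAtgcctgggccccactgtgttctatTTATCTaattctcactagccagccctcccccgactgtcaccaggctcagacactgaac
Cyp26a1 (chr19:37933077-37933176): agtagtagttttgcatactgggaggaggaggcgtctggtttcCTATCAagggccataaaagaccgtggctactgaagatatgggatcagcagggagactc
Bmp2 (chr2:133255556-133255655): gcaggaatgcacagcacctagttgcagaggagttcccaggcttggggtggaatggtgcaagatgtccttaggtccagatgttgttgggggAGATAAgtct
Abcb10 (chr8:126512673-126512772): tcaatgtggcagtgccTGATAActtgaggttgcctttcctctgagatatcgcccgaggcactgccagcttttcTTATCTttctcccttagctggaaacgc

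In these deposited peak lists the fold enrichment is the ratio of ChIP fragments to the local background at the summit, each with 1 added, and it was computed against the input in replicate 1 and against the ChIP library itself in replicate 2. The ratios of the 2 replicates are therefore on different footings. The GATA-only peaks had a median fold enrichment of 6.83 in replicate 1, with a range from 1.82 to 29.5, and of 5.26 in replicate 2, with a range from 1.76 to 15.0. The median summit held 39 fragments in replicate 1 and 36 in replicate 2, as recovered from the fold enrichments and p-values of the lists. A fold of at least 5 in both replicates was seen in 205 of the 401 peaks and a fold of at least 10 in both in 11. Enrichment was higher in replicate 1 in 305 peaks and in replicate 2 in 96.

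The order of the peaks was only partly shared between replicates, with a Spearman rho of 0.57 across the 401 peaks, which are not independent replicates. Both deposited lists carry the same ChIP number in their peak names, although the series text speaks of independent differentiations. The lists are not copies of each other, since the fragment counts of the GATA-only peaks differed by more than sampling noise (chi-square 784 on 400 degrees of freedom) and 9 of 401 summits fell on the same base. They are treated as 2 samples as the labels say. The peaks were called with the input in replicate 1 and without it in replicate 2. Whether the lists came from the same chromatin, or from 1 library called under different settings, was not tested. Because peaks of these lists are not biological replicates, every p-value given here describes peaks within these libraries.

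**Figure D1:**
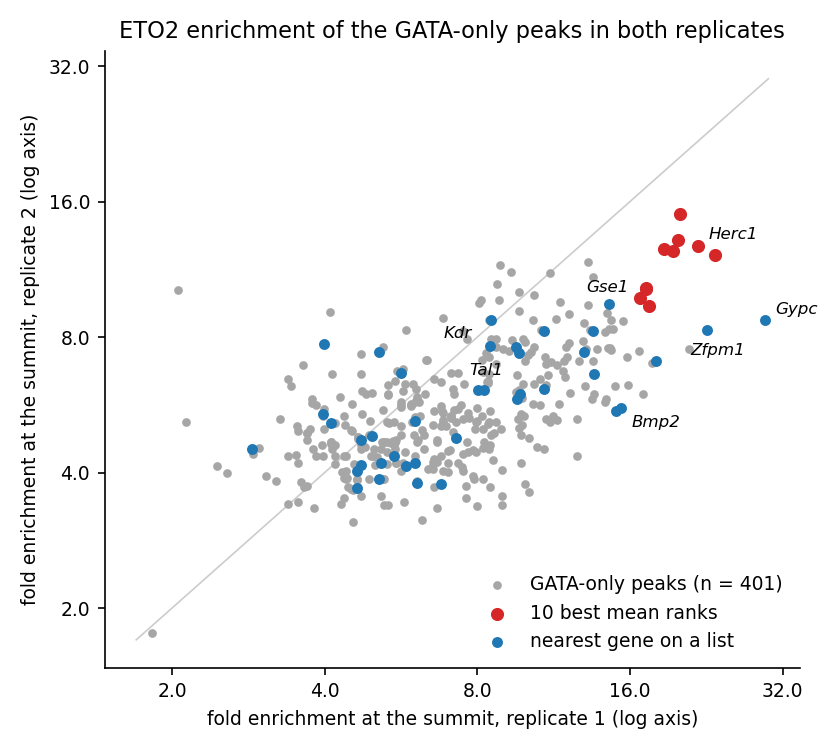
Fold enrichment at the summit of each GATA-only peak in replicate 1 (x axis) and replicate 2 (y axis), both on log axes, with the 10 best mean ranks in red, peaks whose nearest gene is on a gene list in blue and the line of equal values in grey. The best ranked peaks lay near or above 10 in both replicates, and Gypc had the highest value of replicate 1 (29.5) with 8.71 in replicate 2.

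The 10 best ranked GATA-only peaks lay between 3.87 kb (Olfr65) and 119 kb (Gse1) from the nearest start site. The peak next to Olfr65 on chromosome 7 had a fold of 20.1 in replicate 1 and of 15.0 in the other replicate, the highest replicate 2 value of the class, and lay 57.0 kb from the start site of Hbb-y, the embryonic beta-like globin gene. This olfactory receptor gene lies within the beta-globin region, and the distance to Hbb-y was looked up after the peak had been seen. The peak upstream of Herc1 had values of 21.8 and 12.8, and that upstream of Gcom1 had 23.6 and 12.2. An intergenic peak near Hdgf, which encodes a growth factor, had values of 19.9 and 13.1. A peak in an intron of Zdhhc19 had 19.5 and 12.4, and it lay 99.2 kb from the start site of Tfrc, the transferrin receptor gene that red cell precursors need for iron uptake, again looked up afterwards. The sixth peak, in an intron of Evi5 with 1700013N18Rik as the nearest start site, had 18.7 and 12.5.

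The next 4 peaks were near Gm10152 (17.2 and 10.3), Pik3cg (17.2 and 10.2), Gse1 (16.8 and 9.77) and Odc1 (17.4 and 9.37). Odc1 encodes ornithine decarboxylase, the entry enzyme of polyamine synthesis, and Pik3cg a catalytic subunit of phosphoinositide 3-kinase used by blood cells. In 3 of the 10 peaks the site was within 10 bp of the summit, namely Herc1 (10 bp), Pik3cg (8 bp) and Gse1 (3 bp). In the Pik3cg window 89.6% of the 24-base words occurred once in the genome, whereas the other 9 windows were fully unique.

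GATA-only peaks were distal elements for the most part. By the GENCODE annotation of the same assembly, 221 of 401 summits (55.1%) were intergenic, 173 (43.1%) were intronic, 5 were in untranslated exon sequence, 2 were in exons of other transcripts and none was in coding sequence. The median distance to the nearest protein-coding start site was 28.01 kb, and 293 peaks (73.1%) lay more than 10 kb away. Of the intronic summits, 12 were placed in Gm20388, an annotated transcript unit on chromosome 8 that spans many other genes, so their intronic label says little.

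The GATA-only peaks were at promoters less often than either other class of shared peaks. A summit within 1 kb of a start site was found for 9 of 401 GATA-only peaks (2.24%; 95% Wilson interval 1.19 to 4.21%), 27 of 368 composite peaks (7.34%; 5.09 to 10.46%) and 19 of 234 peaks with neither (8.12%; 5.26 to 12.3%). By 2-sided Fisher's exact test with Benjamini-Hochberg adjustment over 4 comparisons of position, the adjusted p was 0.00192 against the composite peaks and 0.00192 against the peaks with neither. The intervals cover counting error only. The median GC content of the windows was 50% in GATA-only peaks, 51% in composite peaks and 53.5% in peaks with neither. Its part in the promoter shares was not tested. This call depended on details of the definition: with the classes taken at the replicate 2 summits the shares were 3.67%, 6.28% and 7.08% and the adjusted p-values 0.267 and 0.245, and with a promoter of 2 kb they were 6.48%, 11.1% and 12.4% with adjusted p-values of 0.0579 and 0.0513. All of these shares kept the GATA-only peaks lowest.

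The 9 promoter peaks, named here after their values were seen, included genes of blood, platelets and vessels. At Tal1, which encodes SCL itself, the summit was 0.248 kb inside the gene where ETO2 was enriched 8.02-fold in replicate 1 and 6.10-fold in replicate 2. At F2rl3, a thrombin receptor gene of platelets, it was 0.372 kb upstream with 3.97 and 5.40. At Edn1, the gene of the vessel peptide endothelin 1, it was 0.199 kb downstream in untranslated sequence with 5.32 and 3.39. The others were near Rcbtb2, Rbp2, Vangl1, Mylk3, Abi3 and Lrrn4, with replicate 1 values from 4.88 (Lrrn4) to 14.3 (Rcbtb2) and replicate 2 values from 3.62 (Abi3) to 7.11 (Rbp2).

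Enrichment of the GATA-only peaks lay between that of the other classes in replicate 1, but the differences were small beside the spread within each class. The medians in replicate 1 were 7.39 for composite peaks, 6.83 for GATA-only peaks and 6.29 for peaks with neither, and in replicate 2 they were 5.58, 5.26 and 5.28. The share of peaks above the pooled median was compared by 2-sided Fisher's exact test, adjusted over the 4 comparisons. No comparison passed at 0.05: against composite peaks the adjusted p was 0.199 in replicate 1 and 0.0526 in replicate 2, and against peaks with neither it was 0.0526 and 1. At an unadjusted threshold 2 of the 4 comparisons passed. Restricting all classes to peaks with the same class at the summits of both replicates, an alternative chosen after seeing the data, widened the gaps to the composite peaks to 6.80 against 7.57 in replicate 1 (Fisher's exact test, adjusted p = 0.0312) and 5.25 against 5.82 in replicate 2 (adjusted p = 0.0144).

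**Figure D2:**
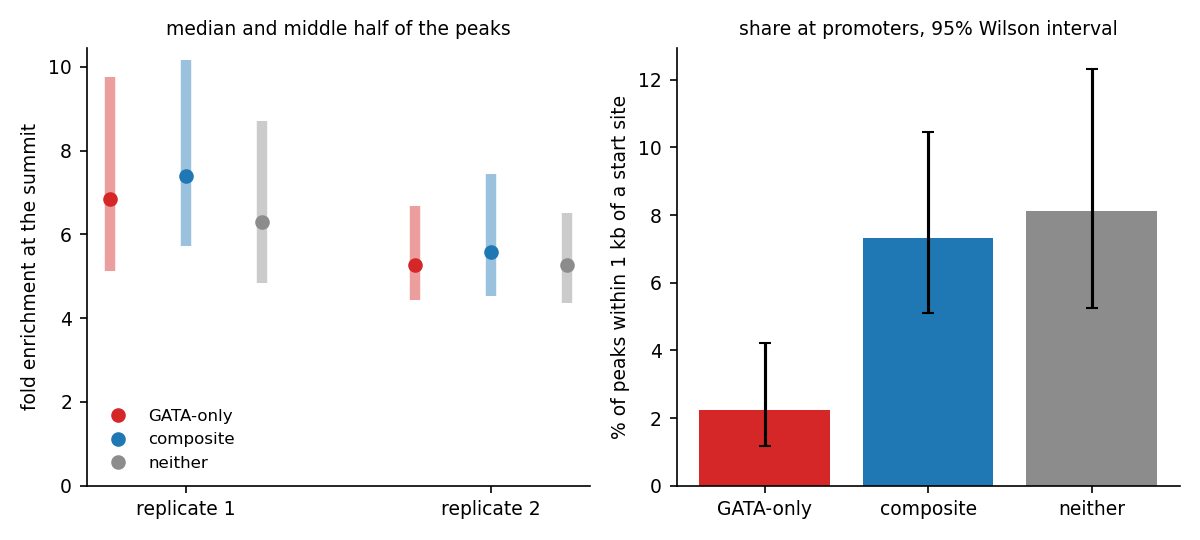
Left, fold enrichment at the summit in each replicate, with the median (point) and the middle 50% of peaks (bar) for GATA-only peaks, composite peaks and peaks with neither. Right, the share of peaks within 1 kb of a protein-coding start site with 95% Wilson intervals, which was 2.24% for GATA-only peaks against 7.34% and 8.12%.

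Peak widths and neighbours of the classes were similar, while the distance between the 2 summits was less so. GATA-only peaks had a median width of 334 bp in the replicate 1 list and 242 bp in the other list. Composite peaks had 343 and 236.5 bp, and peaks with neither 341 and 254 bp. The 2 summits of a peak lay within 50 bp in 76.8% of GATA-only peaks. For composite peaks this share was 84.0% and for peaks with neither 63.7%, with no test made. A further region of the series list lay within 10 kb of 93 GATA-only peaks (23.2%), 88 composite peaks (23.9%) and 61 peaks with neither (26.1%), and the adjusted p was 0.865 and 0.591 (2-sided Fisher's exact test). With shared peaks alone, 20 GATA-only peaks (4.99%) had another GATA-only peak with its summit within 10 kb, 13 (3.24%) had a composite peak and 13 had a peak with neither. Within 50 kb these numbers rose to 55, 45 and 39.

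Chromosome 8 held 50 GATA-only peaks (12.5%; 95% Wilson interval 9.59 to 16.1%), compared with 35 composite peaks (9.51%) and 22 peaks with neither (9.40%). The local background was higher there, with a median of 9.01 scaled fragments in replicate 1 and 7.94 in replicate 2, against 6.00 and 5.51 on chromosomes other than 1 and 8. Fragments at the summits were also more numerous, at medians of 46 and 40.5 against 36 and 35, while the median fold enrichments were lower, at 6.23 and 4.75 against 7.10 and 5.33. The part of chromosome copy number in these values was not tested. A repeated summit window, with under 90% of its 24-base words unique, was found in 32 GATA-only peaks (7.98%), whose median fold enrichments were 5.95 and 5.17.

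WGATAR sites clustered around the summits of replicate 2, which had no part in the sequence selection. A site lay within 50 bp of the replicate 2 summit in 338 of 401 peaks (84.3%; 95% Wilson interval 80.4 to 87.5%), against 137 of 802 windows (17.1%) centred 500 bp to either side. The 2 summits of a peak were a median of 26 bp apart, so these windows overlap the selected ones in most peaks. Around the replicate 2 summits the mean number of sites per 20 bp and 100 peaks was 24.8 within 40 bp, 17.1 at 40 to 100 bp, 6.16 at 100 to 200 bp and 4.89 at 200 to 300 bp. Around the replicate 1 summits it was 28.5, 14.6, 6.63 and 4.29.

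**Figure D3:**
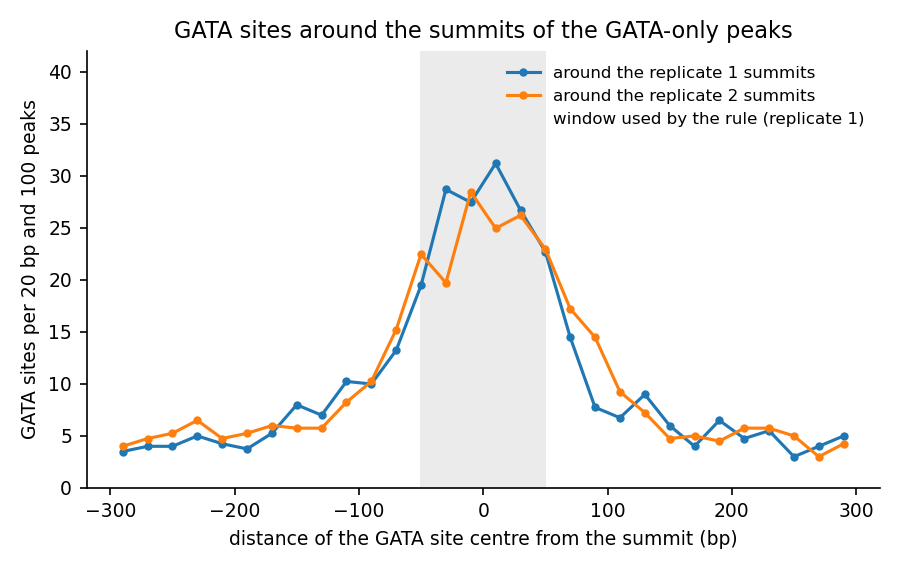
Number of WGATAR centres per 20 bp and 100 GATA-only peaks (y axis) by distance from the summit (x axis, bp), for the summits of replicate 1 and of replicate 2, with the window used for selection in grey. Both profiles fell from at least 19.7 within 40 bp to between 2.99 and 6.48 beyond 200 bp, and the replicate 1 profile is fixed by the selection inside the window.

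Most GATA-only peaks had a single WGATAR, namely 273 of 401 (68.1%), while 110 had 2, 16 had 3 and 2 had 4. Of the windows 500 bp away that held any site, 13 of 138 (9.42%) had 2 or more, against 128 of 401 (31.9%) at the summits. Peaks with 2 or more sites had medians of 7.22 in replicate 1 and 5.41 in the other replicate, against 6.77 and 5.21 for peaks with 1 site, and the adjusted p over 6 comparisons within the class was 0.785 in each replicate (2-sided Fisher's exact test). When the class itself was redefined on 200 bp windows, 210 of its peaks had 2 or more sites and 159 had 1. Their replicate 1 medians were 7.505 and 6.00 (Fisher's exact test, adjusted p = 0.00135). In replicate 2 they were 5.32 and 5.02 (Fisher's exact test, adjusted p = 0.222). Of the 401 peaks, 123 had a site within 10 bp of the summit, with medians of 6.85 and 5.17 against 6.83 and 5.33 for the rest (Fisher's exact test, adjusted p = 0.914 and 0.785).

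The sites had the letters that GATA factors favour. Of the 549 WGATAR sites, 291 (53.0%) were AGATAA, 137 (24.95%) TGATAA, 75 (13.7%) AGATAG and 46 (8.38%) TGATAG, whereas among 334 sites in windows 500 bp and 1 kb away AGATAA made up 31.7% and AGATAG 28.1%. The base after the site, which the selection did not read, was G in 279 sites (50.8%) against 22.8% in those flanks. The full string AGATAAG was found at 174 sites (31.7%) against 8.38% of flank sites and 28.2% of the 472 sites at composite peaks. GATA-only and composite peaks had a similar mixture of sites, with AGATAA at 53.0% and 49.6%.

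Of 170 pairs of sites within a window, 104 (61.2%) had the same orientation, 32 faced each other and 34 pointed apart. The most frequent step was 5 bp in the same orientation, in 7 pairs, in which the sites share letters as in the Plekha6 window above. No other step had more than 5 pairs.

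Although CTG at 8 to 10 bases was excluded, GTG was frequent at the same place. At a spacing of 9 bases before GATA, GTG preceded 40 of 549 sites (7.29%; 95% Wilson interval 5.40 to 9.77%), and it was the most frequent of all triplets there, followed by ATG at 24 sites (4.37%). At the 17 spacings from 1 to 20 outside 8 to 10 bases, GTG preceded between 0.729% and 3.10% of the sites. In flank windows GTG stood at 9 bases before 3 of 334 sites (0.898%). Removing CTG makes every other triplet more frequent, so the sites of composite peaks were also added back. GTG then preceded 48 of 1021 sites (4.70%) at 9 bases, little more than the 42 sites (4.11%) at 7 bases, the highest of the other spacings. In composite peaks alone GTG was most frequent at 7 bases, before 27 of 472 sites (5.72%). A CTGTG with its GTG at 7 bases has its CTG at 9. With the composite sites added, ATG stood at 2.55%, as often as at another spacing. TTG, at 3.28% in GATA-only peaks and 3.59% in flanks, did not stand out. These counts were made after the pattern had been seen and were not tested.

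The selection put a WGATAR in every summit window, whereas 138 of 802 flank windows (17.2%) held one. A difference between these windows in GTG before GATA is therefore partly fixed by the rule. By whole windows, 40 GATA-only peaks (9.98%) had GTG 9 bases before a GATA, against 5 of 802 flank windows (0.623%). Their median fold enrichments were 7.65 in replicate 1 and 5.31 in replicate 2, against 6.78 and 5.25 in the other GATA-only peaks. Well-ranked examples show the arrangement, here with the GTG and the GATA in capitals and each read on the minus strand of mm9. In the 1700013N18Rik and Fndc3a strings the GTG is the end of CTGTG. There CTG also stands 11 bases before the same GATA, just outside the excluded spacing, whereas the Defb30 string has no such CTG.
1700013N18Rik (chr5:108188320-108188345): acctGTGaggtgataaGATAgcattc
Defb30 (chr14:63681204-63681229): ccatGTGggcggcccaGATAagtggc
Fndc3a (chr14:72513504-72513529): gactGTGggtggagaaGATAacagtt

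**Figure D4:**
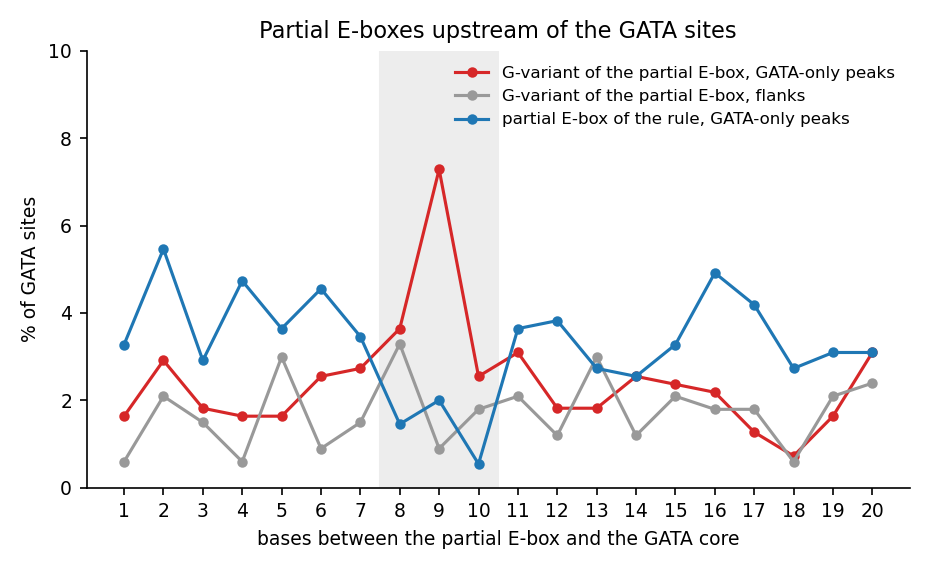
Share of WGATAR sites (y axis) that have the partial E-box of the selection or its variant with G as the leading base at each number of bases before the GATA core (x axis), with the excluded spacings in grey. The variant reached 7.29% at 9 bases in GATA-only peaks and 0.898% in their flanks, and the partial E-box of the selection is low at 8 to 10 bases by construction, with the remaining sites having their partner outside the window.

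Whole E-boxes were present away from the excluded spacing. CANNTG occurred in 192 of 401 windows (47.9%), against 41.1% of flank windows, 48.4% of composite peaks and 47.01% of peaks with neither. The versions CATCTG (16.7% against 6.73% of flank windows) and CAGCTG (11.2% against 4.74%) were more frequent at the summits, and CAGGTG was not (5.74% against 6.48%). These strings hold CTG on at least 1 strand, which the selection reads, so no test was made. CAGCTG was in 17.1% of composite peaks and 16.2% of peaks with neither, and CATCTG in 16.8% and 15.0%.

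The absence of the composite arrangement depended on the width of the window. In 200 bp around the same summits, 105 of 401 GATA-only peaks (26.2%) did hold CTG, 8 to 10 bases and GATA, against 5.86% of the 200 bp windows 500 bp away. By selection every summit held a WGATAR, against 17.2% of the 100 bp flank windows, so this gap is partly fixed by the rule. The 105 peaks had median fold enrichments of 7.43 and 5.73, and the other 296 had 6.77 and 5.17. At the replicate 2 summits 282 peaks (70.3%) kept the GATA-only sequence, 60 had the composite and 59 had neither. The medians were 6.80 and 5.25 in the first of these groups, 7.56 and 5.73 in the second and 6.10 and 4.996 in the third.

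At the limits of the rule, 34 GATA-only peaks had their nearest WGATAR centred 41 to 47 bp from the summit, with median fold enrichments of 7.41 and 5.55, and 41 peaks of the class with neither had it centred 48 to 54 bp away, with 7.36 and 5.69. GATA-only peaks with CTG and GATA 7 bases apart numbered 23, with medians of 6.79 and 4.66, and those 11 bases apart numbered 18, with 5.32 and 5.59. Just outside, composite peaks with a spacing of 8 but not 9 bases numbered 118 and had 7.72 and 5.41, and those with 10 but not 9 numbered 63 and had 7.48 and 5.54.

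Short motifs of other factor families were counted on both strands in the summit windows and in windows of the same length 500 bp to each side. The motifs were AGGAA for ETS factors, TGTGGT for RUNX, CACCC for KLF, ACAAT for SOX, TGACAG for MEIS, CAGAC for SMAD, TGANTCA for AP-1 and, as a control, RATAGW, which is WGATAR with its letters in reverse order. For each motif the larger p of 2 exact McNemar tests, against the left and the right flank, was adjusted over the 8 motifs.

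ETS and SMAD motifs passed this test. AGGAA was present in 188 of 401 summit windows (46.9%; 95% Wilson interval 42.1 to 51.8%), 31.7% of left flanks and 31.9% of right flanks (exact McNemar test, adjusted p = 0.000256). CAGAC was present in 136 (33.9%; 29.5 to 38.7%), 22.4% and 20.2% (exact McNemar test, adjusted p = 0.00138). It holds CTG on the reverse strand, which the selection read at the summits and not in the flanks, so its test is not independent of the rule. In 21 of the 188 windows an AGGAA shared letters with a WGATAR and in another 58 it lay within 10 bases. For CAGAC these numbers were 5 and 44 of 136. GC content also differed, with a median of 50% at the summits and 46% in the flanks, and its part in these shares was not tested.

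The RUNX motif was present in 12.5% of summit windows and 7.98% and 6.23% of the flanks (exact McNemar test, adjusted p = 0.118), and the MEIS motif in 8.98%, 5.49% and 4.74% (adjusted p = 0.152). KLF, SOX and AP-1 motifs were within 1.12 percentage points of the mean of their flanks, at 20.2%, 15.0% and 2.74% of the summit windows. The control was at 15.5% against 10.7% and 12.7% (exact McNemar test, adjusted p = 0.488), and in 47 of its 62 windows it shared letters with a WGATAR. Over all replicate 1 peaks with the GATA-only sequence the control did pass, at 17.3% against 11.8% (exact McNemar test, adjusted p = 0.00346). The TGTGGT call moved with the settings, as it passed when an overlap of 50% of the replicate 1 peak was asked (exact McNemar test, adjusted p = 0.0404). It also passed with a q of 1e-05, without replicate 2 and without replicate 1 (exact McNemar test, adjusted p = 0.0246, 0.00141 and 0.0427). Under the other settings it did not pass.

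**Figure D5:**
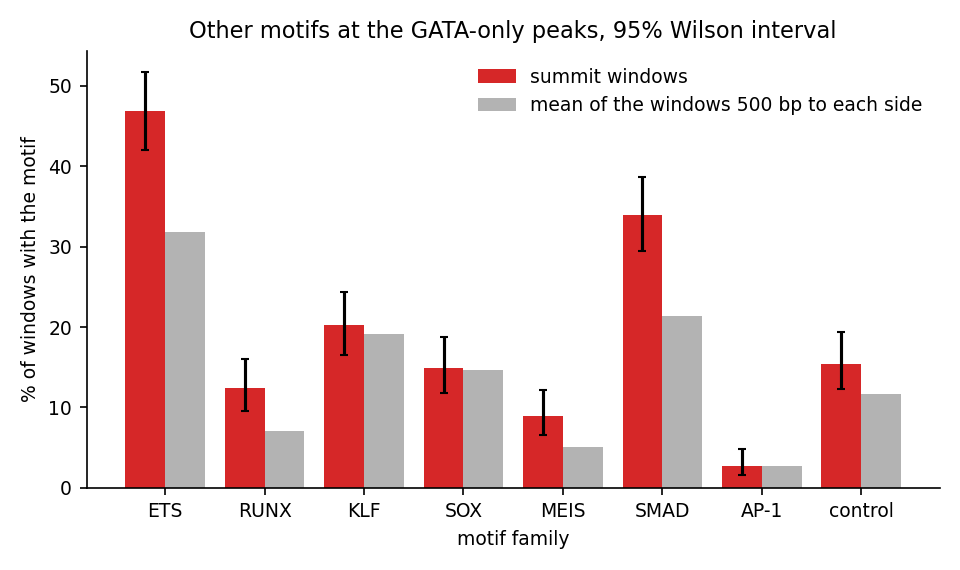
Share of GATA-only peaks with each motif (y axis) by factor family (x axis), at the summit (red, 95% Wilson interval) and as the mean of the windows 500 bp to each side (grey). The ETS motif stood at 46.9% against 31.8% and the SMAD motif at 33.9% against 21.3%, while KLF, SOX and AP-1 were close to their flanks.

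Apart from the control, no motif set the GATA-only peaks apart from the other shared peaks under all settings tried. Among 16 comparisons by 2-sided Fisher's exact test, 2 passed after adjustment, both against peaks with neither. The MEIS motif TGACAG was less frequent in GATA-only peaks (8.98%) than in peaks with neither (17.1%; Fisher's exact test, adjusted p = 0.0269), while composite peaks were at 9.51% (adjusted p = 1). This call was lost with 200 bp windows, replicate 2 summits, either replicate alone, the same class at both summits, and without chromosomes 1 and 8 (Fisher's exact test, adjusted p from 0.0845 to 0.856). The other was the control RATAGW, at 15.5% against 4.27% (Fisher's exact test, adjusted p = 0.000119), which is bound to the selection because a WGATAR that ends in G can overlap it. AGGAA was at 46.9%, 43.2% and 48.7% in the 3 classes, and CAGAC at 33.9%, 38.9% and 29.9%. CAGAC and TGACAG both hold CTG on the reverse strand, so none of their comparisons, between classes or with flanks, is independent of the rule. GATA-only peaks with AGGAA had median fold enrichments of 6.97 and 5.33, against 6.83 and 5.25 without it (Fisher's exact test, adjusted p = 0.914 and 0.823).

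The 401 peaks were nearest to 371 protein-coding genes, which is 1.67% of the 22219 genes of the annotation. Most genes were nearest to 1 peak, 24 to 2 peaks and 3 to 3 peaks, namely Runx1, Cited2 and Fam92b. Gene lists written for this tissue, with earlier results of these data known, gave higher shares, but genes with long surroundings collect more distal peaks and no test was made. Shared peaks of any class, these included, were nearest to 16 blood transcription factor, 14 endothelial and 10 BMP and SMAD genes. For co-repressor and Polycomb genes the number was 8, for red cell and heme genes 6, for megakaryocyte and platelet genes 6 and for cardiac, paraxial and streak genes 5. The higher shares are therefore not shown to be particular to GATA-only peaks.

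Blood transcription factor genes were nearest to a GATA-only peak in 6 of 46 cases (13.0%). Fli1, an ETS factor gene of blood and vessel, had a peak 15.1 kb upstream that was enriched 13.0-fold in replicate 1 and 7.40-fold in replicate 2. Runx1, which is needed for definitive blood, had 3 peaks: that 57.9 kb upstream had 9.55 and 7.59, the intronic peak 18.4 kb from the nearest start site had 15.0 and 5.49, and that 304 kb upstream had 2.88 and 4.52. The Runx1 peaks thus ranged from strong to among the weakest in the class. Tal1 is given above, and Mafk (4.72 and 4.15) and Zbtb16 (5.12 and 3.88) had weaker peaks.

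Outside this list of nearest genes, 3 GATA-only peaks lay on either side of Myb, which encodes a factor needed by definitive blood progenitors, and were looked up after their values had been seen. The peak nearest to Hbs1l lay 67.7 kb upstream of the Myb start site and had fold enrichments of 13.2 and 11.8. The 2 peaks nearest to Ahi1 lay 106 kb and 134 kb downstream of it and had 13.1 and 7.52, and 8.05 and 9.53.

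Endothelial genes were nearest in 6 of 41 cases (14.6%). Cyp26a1, a retinoic acid degrading enzyme gene, had a peak 161 kb downstream with 13.6 and 6.63. Sox7, a SoxF factor gene, had a peak 34.96 kb upstream within Pinx1 with 8.51 and 8.75 and another 14.3 kb downstream with 5.66 and 6.66. Kdr, which encodes FLK1, had a peak 16.1 kb inside the gene with 8.46 and 7.65. This peak over the gene of the receptor used to enrich the cells had 2 WGATAR sites. Hey2 (9.58 and 5.82), Egfl7 (6.04 and 5.21) and Ets2 (4.11 and 5.16) followed.

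Co-repressor and Polycomb genes were nearest in 5 of 33 cases (15.2%), and several had strong peaks. The peak 119 kb upstream of Gse1, a gene whose product is found in histone deacetylase complexes, had 16.8 and 9.77. Zfpm1, which encodes the GATA partner FOG1, had a peak 31.4 kb downstream of the start site with 22.7 and 8.31 and another at 2.47 kb with 5.78 and 4.13. Rybp, a subunit gene of variant Polycomb repressive complex 1, had 2 peaks 247 kb and 276 kb away with 13.6 and 8.24, and 9.67 and 7.38. Cbfa2t3, the gene of ETO2 itself, had a peak 6.91 kb upstream with 10.8 and 6.13, and Pcgf5, another Polycomb subunit gene, had one at 105 kb with 8.26 and 6.09. The Gse1, Zfpm1 and Cbfa2t3 peaks were all on chromosome 8, where the local background was higher.

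BMP and SMAD genes were nearest in 5 of 34 cases (14.7%), and apart from Bmp2 their peaks were weak. Bmp2 had a peak 122 kb upstream with 15.4 in replicate 1 and 5.57 in replicate 2. The 2 peaks upstream of Smad7, an inhibitor of SMAD signalling, had 4.97 and 4.81, and 4.64 and 3.70. The best peaks of Bambi (5.49 and 4.36), Smad3 (6.08 and 3.79) and Smad6 (5.16 and 4.19) were below the class median in both replicates. The weaker Bambi peak was in a repeated window, in which 31.2% of the 24-base words were unique.

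Cardiac, paraxial and streak genes were nearest in 4 of 44 cases (9.09%). Gata6, a GATA factor gene of heart and endoderm, had an intronic peak with 5.11 and 7.43. Foxf1a had 2 peaks 141 kb and 112 kb upstream with 3.99 and 7.74, and 4.72 and 4.72, and the former held 3 WGATAR sites. Tbx20 (7.27 and 4.77) and Irx3 (6.78 and 3.77) had single peaks. The highest replicate 1 value among these peaks was the 7.27 of Tbx20, near the class median. In replicate 2 the Foxf1a peak at 141 kb (7.74) and the Gata6 peak (7.43) lay above the upper quartile of the class, 6.68.

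Megakaryocyte and platelet genes were nearest in 3 of 24 cases (12.5%). F2rl2, a thrombin receptor gene, had a peak 25.2 kb upstream within Iqgap2 with 14.5 and 9.47 and 2 WGATAR sites. Plek (6.04 and 4.2003) and F2rl3 had weaker peaks. Red cell and heme genes were nearest in 2 of 49 cases (4.08%). Gypc, the gene of the red cell membrane protein glycophorin C, had 2 intronic peaks on chromosome 18 with 29.5 and 8.71, and 17.98 and 7.09. The former had the highest replicate 1 value of the class, with its WGATAR 2 bp from the summit. Abcb10, a mitochondrial transporter gene linked to heme synthesis, had a peak with 9.73 and 5.97.

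The 2 windows with 4 WGATAR sites were not among the most enriched ones, as Plekha6 and Fndc7 were ranked 288 and 295 of 401. Hunk, ranked 21, was the best of the 16 peaks with 3 sites. Cited2, which encodes a transcriptional co-activator, had peaks 1122 kb, 133 kb and 122 kb upstream with 5.76 and 6.30, 14.7 and 7.47, and 7.67 and 4.44. The 3 peaks assigned to Fam92b on chromosome 8 lay in the stretch leading to Gse1 and had replicate 1 values from 4.31 to 7.49 and replicate 2 values from 3.41 to 5.69.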

How the data were processed

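Per the labels and the study's methods, FLK1+ cells were crosslinked with EGS and formaldehyde, ETO2 was precipitated, and read pairs were aligned by the authors to mm9 with Bowtie. The submitters' processing notes also name Trim Galore, SAMtools, bedtools and MACS2 (2.0.10). Reads mapping to several places and duplicates were removed, which lowers values in repeats. Peaks were called by the authors with MACS2, using the input as background for replicate 1 and no input for replicate 2. The deposited lists hold a score derived from the q-value, the ratio of signal to background at the summit (fold enrichment), and −log10 p and −log10 q. A list covering the series, as deposited, gave positions only (3206 regions). The lists hold no read totals, and totals per library were not used here. Per the values, 100% of the peaks matched a whole number of fragments within 0.01 of −log10 p, and these numbers ran from 12 to 206 over the replicate 1 peaks and from 18 to 236 over those of replicate 2.

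Classes, motifs and start sites were computed with Python (3.11.15), scipy (1.17.1), pandas (2.3.3) and pysam (0.24.0) on the mm9 assembly and the GENCODE annotation of it. Shares were compared by 2-sided Fisher's exact tests, fold enrichments by the same test on counts above the pooled median, and summits with flanks by exact McNemar tests, with Benjamini-Hochberg adjustment within each family and a threshold of 0.05. The tests and motif searches were tested on simulated data. Members and gene lists were chosen with earlier results of these data known. Named peaks were the 10 with the best mean rank of fold enrichment, the best peak of each list gene with at most 8 genes a list, and the 3 with the most WGATAR, with ties ordered by rank. Further peaks of list genes, promoter peaks, genes with 3 peaks and the distances to Myb, Hbb-y and Tfrc were added after their values were seen. Alternatives changed the overlap, q threshold, window, spacing, summit, replicate, flanks, promoter or neighbour distance, repeats and chromosomes. The labels put 2 samples in the ETO2 group and 1 in the input group, which was not analysed here. A peak of the blood transcription factor list is not reported here.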

Additional observations from a re-analysis of the deposited data

How the results depend on the processing

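Of 159 recalculations of 17 results under alternative settings, 101 kept the direction and the side of the threshold, 9 lost a call, 18 gained one, 27 changed direction and 4 changed a count by more than 1.5 times; the cause of these changes was not tested. Differences below are those of the GATA-only peaks minus the other class, in fold enrichment or percentage points. No paired analysis was possible because the input, which shares replicate number 1 with a ChIP sample, was not analysed here and the results come from peak lists.

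Against composite peaks, the fold enrichment difference became a call with 200 bp windows (-0.75 in replicate 1 and -0.45 in replicate 2), with replicate 2 summits (-0.83 and -0.50), with the same class at both summits (-0.76 and -0.56) and without the other replicate (-0.68 and -0.46). Against peaks with neither, the replicate 1 difference became a call with an overlap of 50% (0.72), a q of 1e-05 (0.76), 200 bp windows (1.43), replicate 2 summits (0.73), unique windows (0.71), without chromosomes 1 and 8 (0.69), with the same class at both summits (1.0997) and without replicate 2 (0.87). In replicate 2 it was -0.02 and changed sign with 200 bp windows (0.14), a spacing of 7 to 11 (0.015), replicate 2 summits (0.11), unique windows (0.00039), without chromosomes 1 and 8 (0.00019), with the same class at both summits (0.13) and, as a call, without replicate 1 (0.41).

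The promoter difference was -5.09 points against composite peaks and lost its call with 200 bp windows (-2.75), replicate 2 summits (-2.61), a promoter of 2 kb (-4.66) and the same class at both summits (-4.18), and it ranged from -4.39 to -4.07 when a replicate was left out. Against peaks with neither it was -5.88 and lost its call with the same settings (-2.16, -3.41, -5.91 and -4.97), and leaving out a replicate gave -24.3 (without replicate 2) and, without a call, -1.07 (without replicate 1).

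The neighbour difference against composite peaks was -0.72 points and changed sign with an overlap of 50% (0.92), 200 bp windows (2.20), replicate 2 summits (2.42), neighbours within 50 kb (0.48), the same class at both summits (0.98) and without a replicate (0.92 to 5.81). Against peaks with neither it changed sign with replicate 2 summits (3.90) and the same class at both summits (1.75), and without a replicate it ranged from -9.59, a call without replicate 1, to 2.70.

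Within the class, the difference by number of sites became a call with 200 bp windows (1.51, replicate 1). That by AGGAA changed sign in replicate 1 with 200 bp windows (-0.69) and without replicate 2 (-0.15), and in replicate 2 with 200 bp windows (-0.15) and replicate 2 summits (-0.00012). That by distance of the site changed sign in replicate 1 with a q of 1e-05 (-0.071), replicate 2 summits (-0.36), unique windows (-0.10), without chromosomes 1 and 8 (-0.35) and without replicate 2 (-0.21), and in replicate 2 with replicate 2 summits (0.037).

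Motifs above their flanks numbered 2, and 3 to 5 when a replicate was left out, the control RATAGW among the 5 without replicate 2. Motifs that differed between classes numbered 2, the control and TGACAG, and 1 with 200 bp windows, the control, and 1 to 2 without a replicate. The motifs changed too. Without replicate 1 the second was CAGAC, against composite peaks (Fisher's exact test, adjusted p = 0.00331). With replicate 2 summits 3 differed, namely the control, the CACCC motif against peaks with neither and CAGAC against composite peaks (Fisher's exact test, adjusted p = 0.0341 each). AGGAA passed against its flanks under every setting run, and CAGAC under all but the same class at both summits (exact McNemar test, adjusted p = 0.0892), an alternative chosen after seeing the data. The number of GATA-only peaks was 401, and 568 to 878 when peaks of a single replicate were used. The median summit held 39 fragments in replicate 1 and 36 in replicate 2; the effect of depth was not tested.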
